A study of Mus musculus with 3 samples.

Results

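Collagen chain genes, chosen as every gene symbol made of Col, a type number, the letter a and a chain number, numbered 44 of the 24481 gene rows measured in mouse skeletal muscle. Each of the 44 symbols stood on a single row. By the type number, 11 chains were fibrillar (types I, II, III, V, XI, XXIV and XXVII), 8 belonged to basement membrane (types IV, XV and XVIII) and 25 to other types. The mice were of the outbred ICR stock, aged 42 postnatal days, in a study of fatigue and leaf extracts of the dwarf bamboo Sasa quelpaertensis. The 3 groups were a control (NC), an exercise control (EC) and an exercise group labelled SQH (ES), with 1 library each. The labels do not tell which muscle was taken, what the exercise was, what dose of SQH was given, or whether a library holds 1 animal or a pool.

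Collagens are proteins whose chains wind around each other in threes, which needs a glycine at the start of each Gly-X-Y triplet. Fibrillar chains assemble into the ropes that carry force in tendon and in the sheaths around muscle fibre bundles, with type I as the bulk and type III beside it. Type IV chains form the sheet-like network of the basement membrane around every muscle fibre and capillary, and other types link fibrils, membranes and cells. In muscle most of these chains are made by fibroblasts.

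The glycine repeat is written into the exons of these genes, a feature the choice by name did not use. An exon of 54 bases can encode 6 glycine-led triplets. Such exons made up 42.9% to 56.9% of the internal coding exons in the 11 fibrillar genes, and 2.2% to 7.7% in the 8 basement membrane genes. Among the other types the 22 genes with at least 5 coding exons ranged from 0% to 46.7%, with Col22a1 at 45.9% and Col6a1 at 9.1%. Over 13524 other protein-coding genes the share was 0.44% of internal coding exons. The first 54-base coding exon with a glycine codon at the head of every Gly-X-Y triplet is shown for the 4 fibrillar chains on which the results below turn, 5′ to 3′ on the + strand, with the glycine codons that lead a triplet in capitals. These letters come from the GENCODE M21 transcripts for GRCm38, the assembly also called mm10. The exons lie at chr11:94939904-94939957 (Col1a1, exon 8), chr6:4515481-4515534 (Col1a2, exon 8), chr1:45325360-45325413 (Col3a1, exon 6) and chr3:114108281-114108334 (Col11a1, exon 15).
Col1a1: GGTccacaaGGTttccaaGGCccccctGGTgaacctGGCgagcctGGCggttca
Col1a2: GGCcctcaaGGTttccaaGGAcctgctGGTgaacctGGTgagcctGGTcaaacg
Col3a1: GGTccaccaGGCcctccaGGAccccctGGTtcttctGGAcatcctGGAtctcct
Col11a1: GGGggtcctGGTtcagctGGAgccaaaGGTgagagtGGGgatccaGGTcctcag

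Values were log2 levels from sequencing of transcript 3′ ends, where reads do not accumulate with transcript length, so levels are not divided by length. Levels are given throughout in the order control, exercise control, SQH. Total depth was estimated from the spacing of low values at 10.77, 8.14 and 12.36 M reads. With 1 library a group there is no replicate error and no p-value. A chain was called higher or lower by size, at a log2 difference of at least 1 (2-fold), among the 7857 rows whose mean linear value reached 66.5. The ± value beside a difference is the standard error of counting approximate reads, and holds no variation between animals or preparations. The 7 genes that define skeletal muscle (Acta1, Ckm, Myh4, Myh1, Ttn, Mb and Des) stood between 14.20 and 19.01 in the 3 libraries. The exercise control library stood apart in fibre type. All 8 slow-fibre genes examined were called lower there than in control muscle (median -3.83), where 5.33% of all rows were. With SQH all 8 were called higher again than in exercise control (median 3.49), where 5.68% of all rows were. The exercise control library enters 2 of the 3 comparisons.

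Of the 44 chains, 19 passed the expression minimum, 22 lay above 0 but below it, and Col4a6, Col6a4 and Col6a5 were listed at 0 in every library. The 19 were 7 fibrillar, 4 basement membrane and 8 other chains. The most abundant was Col1a2, with a mean linear value of 4758, followed by Col1a1 (2626), Col4a1 (1537), Col6a3 (1495) and Col3a1 (1079). Together the 44 chains made up 0.128% of the control reads (95% Wilson interval 0.126% to 0.130%), 0.172% of the exercise control reads (0.169% to 0.174%) and 0.143% of the SQH reads (0.141% to 0.145%). These intervals cover counting only. In bulk tissue, fewer cells of a type and less RNA per cell cannot be told apart.

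**Figure D1:**
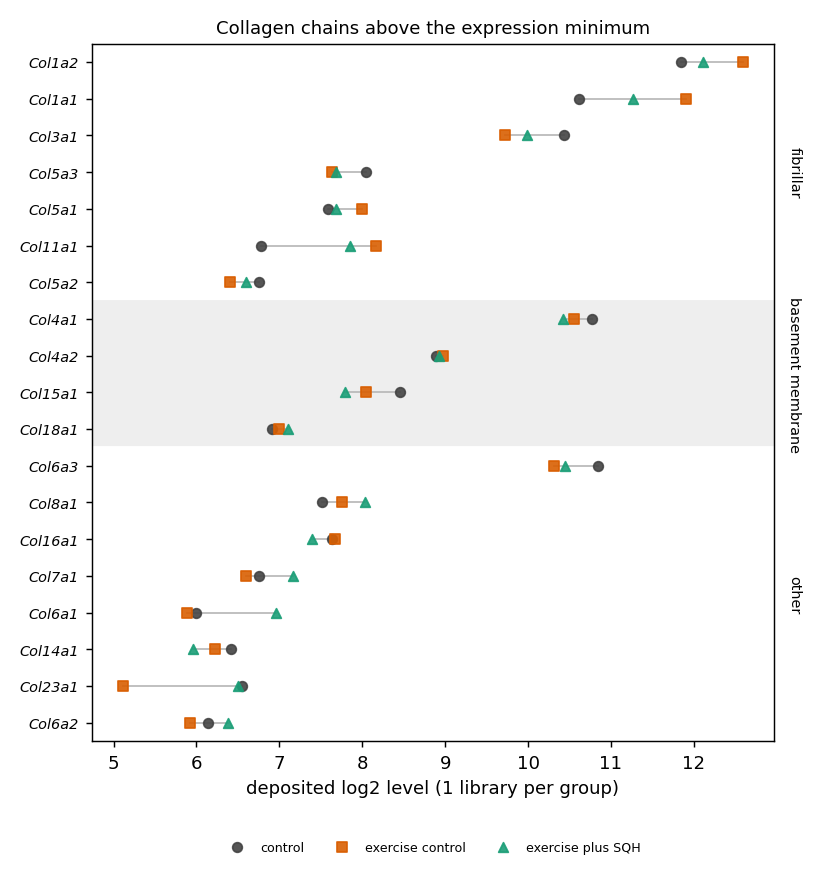
Deposited log2 level (x axis) of the 19 collagen chains above the expression minimum (y axis, grouped by class) in the control (circles), exercise control (squares) and exercise plus SQH (triangles) libraries, 1 library each. Col1a1, Col1a2 and Col11a1 are lowest in the control and highest in the exercise control, Col3a1 has the reverse order, and Col23a1 is low in the exercise control alone.

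Exercise control was first set against control. The fibrillar chains Col1a1 and Col11a1 were called higher and the transmembrane chain Col23a1 lower in the exercise control library. Col1a2 lay 0.74 above the control and Col3a1 0.71 below it, while all 4 basement membrane chains lay within 0.41 of it. In all, 2 of 19 chains were called higher and 1 lower. Over all 7857 rows 2.95% were called higher and 5.33% lower, a split of 232 to 419 that became 293 to 348 after centring each library on its median and 297 to 322 after quantile normalization. The median difference of the 7 fibrillar chains was 0.41, of the 4 basement membrane chains -0.07 and of the 8 other chains -0.17, against -0.04 over all rows. The fibrillar median was 0.02 when the minimum was 20 reads in both libraries, which admitted 8 fibrillar chains.

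Col1a1, the chain that makes up most of the type I molecule, had log2 levels of 10.62, 11.90 and 11.27. The control was lowest and the SQH library in between. Its difference between exercise control and control was 1.28 ± 0.04, or 2.43-fold, on about 3237 against 1679 reads. Col1a2, its partner in the type I molecule, stood at 11.85, 12.59 and 12.11. It had the same order of libraries as Col1a1, with a difference of 0.74 ± 0.03 (1.67-fold) that did not reach the call. The ratio of Col1a1 to Col1a2 was 0.428, 0.622 and 0.557. Since a 3′ library reads only transcript ends, such ratios compare libraries and do not count chains.

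Col3a1, whose product forms the thin fibrils of type III collagen, ran the other way, with levels of 10.43, 9.72 and 9.99. The control was highest and the exercise control lowest. The difference of -0.71 ± 0.07 between these libraries (0.61-fold) did not reach the call. The ratio of Col1a1 to Col3a1 within a library was 1.15, 4.55 and 2.42, and that of Col1a2 to Col3a1 was 2.67, 7.32 and 4.34. These ratios need no scaling between libraries, since both genes come from the same one. Col3a1 lies on chromosome 1 (45311538 to 45349706), 24614 bases from Col5a2 (45374321 to 45503282), with the 3′ ends of both genes facing each other. Col5a2 differed by -0.36 ± 0.22 in the same comparison, at levels of 6.76, 6.4 and 6.60.

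Type V and type XI chains are minor parts of the fibril that set how fibrils start and how thick they grow. Col11a1, better known from cartilage, had log2 levels of 6.78, 8.17 and 7.85. Both exercise libraries stood above the control, the exercise control by 1.39 ± 0.16 (2.62-fold). Col5a1 had levels of 7.59, 8.0 and 7.68, and Col5a3 had 8.04, 7.64 and 7.68. The type V chains did not share a direction: Col5a1 differed by 0.41 ± 0.14 and Col5a3 by -0.40 ± 0.14 between exercise control and control, with no call among them. Of 7 cartilage and bone markers set beside Col11a1, Matn1, Bglap and Sp7 were listed at 0 in all libraries, Acan and Ibsp at 0 in both exercise libraries, and Matn3 at 0, 0 and 2.56. The chondrocyte factor gene Sox9, the 1 marker of that list above the minimum, stood at 9.29, 8.33 and 9.69, lowest where Col11a1 was highest. Of the cartilage chains below the minimum, Col9a1 (2.23, 4.30 and 3.74) and Col2a1 (2.24, 3.03 and 2.98) had the order of Col11a1, on 17 reads or fewer. Col9a2, Col9a3, Col10a1 and Col11a2 were also highest in exercise control, on 20 reads or fewer.

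**Figure D2:**
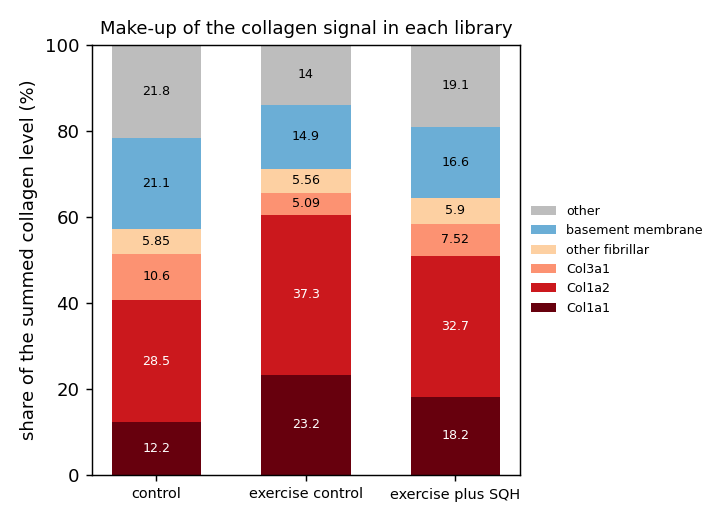
Share of the summed linear collagen level (y axis, percent) taken by Col1a1, Col1a2, Col3a1, the other fibrillar chains, the basement membrane chains and the other chains in each of the 3 libraries (x axis). The type I chains take 40.6% of the control, 60.4% of the exercise control and 50.8% of the SQH library, and Col3a1 takes 10.6%, 5.09% and 7.52%.

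The larger summed collagen level of the exercise control lay with type I. The linear sum over all 44 chains was 12936, 16546 and 13552, and Col1a1 and Col1a2 gave 5258, 10000 and 6891 of it. The remaining chains summed to 7678, 6545 and 6661, so without type I the control library was highest. Fibrillar chains as a class took 57.1% of the collagen level in the control (95% Wilson interval 56.3% to 58.0%), 71.1% in exercise control (70.3% to 71.8%) and 64.3% with SQH (63.6% to 65.0%). Basement membrane chains took 21.1%, 14.9% and 16.6%.

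Col4a1 and Col4a2, the pair that makes the common type IV network of the basement membrane, stood at 10.77, 10.55 and 10.42 and at 8.89, 8.98 and 8.93. Both chains differed by 0.36 or less between any 2 libraries, and the ratio of Col4a1 to Col4a2 was 3.69, 2.96 and 2.81. The pair lies head to head on chromosome 8, Col4a1 from 11198423 to 11312826 and Col4a2 from 11312805 to 11449287. Their 5′ ends share 22 exonic bases on opposite strands, away from the 3′ ends that were read. Col15a1, whose product bridges basement membrane to the matrix around it, had 8.46, 8.05 and 7.79, with both exercise libraries below the control. Col18a1, the source of the fragment endostatin, had 6.91, 7.0 and 7.10. In each comparison 0 of these 4 chains were called, where 8.29%, 8.01% and 3.02% of all rows were called in either direction, so a count of 0 is near the background.

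Chains of type VI form the beaded filament next to the muscle basement membrane, and their defects cause Bethlem and Ullrich myopathies. Col6a3 stood at 10.84, 10.31 and 10.44, with a difference of -0.53 ± 0.05 between exercise control and control. Col6a1 had 6.0, 5.89 and 6.96, and Col6a2 had 6.14, 5.92 and 6.38. Col6a3 was thus highest in the control, and Col6a1 and Col6a2 were highest with SQH, on 162 and 109 reads. The ratio of Col6a3 to Col6a1 was 28.6, 21.3 and 11.2. Col6a1 and Col6a2 are neighbours on chromosome 10 in the same direction, 85161 bases apart.

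Col23a1, a transmembrane collagen that cells can shed, had levels of 6.55, 5.11 and 6.50. The exercise control alone was low, by -1.45 ± 0.30 against the control, on about 29 against 100 reads. With a mean linear value of 72.9 Col23a1 was just inside the minimum, and Col22a1, at 64.0, just outside. The fibril-associated chains Col14a1 (6.42, 6.23 and 5.96) and Col16a1 (7.64, 7.67 and 7.39), the network chain Col8a1 (7.52, 7.75 and 8.03) and the anchoring fibril chain Col7a1 (6.75, 6.60 and 7.16) were not called. Their differences between exercise control and control ran from -0.19 to 0.22.

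**Figure D3:**
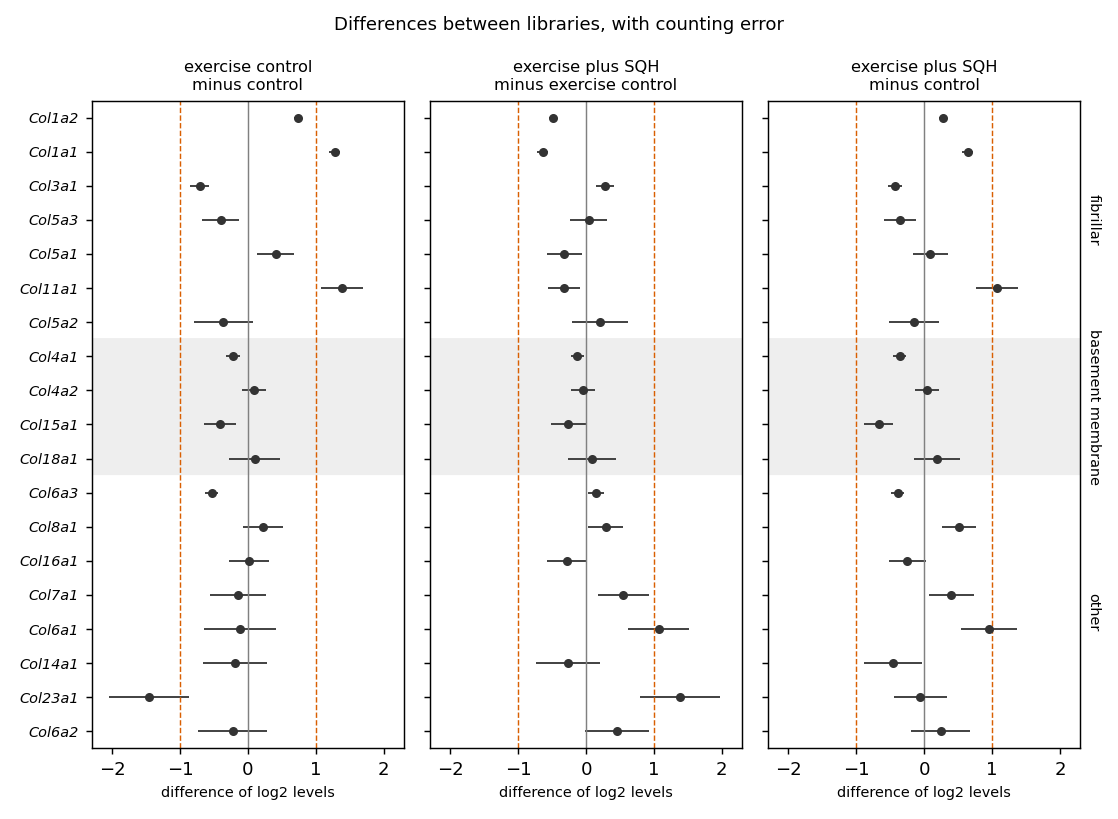
Difference of log2 levels (x axis) of the 19 chains above the minimum (y axis) in the 3 comparisons, with bars of 1.96 counting standard errors and dashed lines at the call of 1. Col1a1, Col11a1 and Col23a1 pass the call in the left panel, Col6a1 and Col23a1 in the middle and Col11a1 on the right.

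Exercise plus SQH was then set against the exercise control. Col23a1 and the type VI chain Col6a1 were called higher with SQH, and no chain was called lower. The type I chains lay below the exercise control and Col3a1 above it, at values between those of the other libraries. So 2 of 19 chains were called higher and 0 lower, where 5.68% of all rows were called higher and 2.33% lower. Among all rows that split of 446 to 183 became 375 to 236 after centring and 348 to 252 after quantile normalization. The fibrillar median was -0.32, the basement membrane median -0.09 and the median of the other chains 0.37, against 0.03 over all rows. Because the exercise control library is shared with the comparison above, opposite signs in both are not separate observations.

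Col23a1 differed by 1.39 ± 0.30. Col6a1 differed by 1.07 ± 0.23 (2.09-fold), and its call ended at 0.99 with libraries centred on their medians, at 0.91 after quantile normalization and at 0.97 with 8 added to the linear value. The other type VI chains, Col6a2 (0.46 ± 0.24) and Col6a3 (0.14 ± 0.06), lay nearer to the exercise control. Among the fibrillar chains Col1a1 differed by -0.64 ± 0.04 (0.64-fold), Col1a2 by -0.48 ± 0.03, Col11a1 by -0.32 ± 0.12 and Col3a1 by 0.28 ± 0.07. These 4 differences, and that of Col5a1 (-0.32 ± 0.13), exceeded 1.96 counting errors and stayed below 2-fold. Those of Col5a2 (0.21 ± 0.21) and Col5a3 (0.04 ± 0.14) lay within 1.96 counting errors. Col7a1 lay 0.55 ± 0.19 above the exercise control, and Col4a1 (-0.13 ± 0.05) and Col4a2 (-0.05 ± 0.09) were close to it.

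Exercise plus SQH against control leaves out the exercise control library. Col11a1 was the only chain called of 19, higher by 1.07 ± 0.16 (2.10-fold), where 1.76% of all rows were called higher and 1.26% lower. Col6a1 (0.96 ± 0.21) missed the call, followed by Col1a1 (0.64 ± 0.04) and Col8a1 (0.51 ± 0.13). Below the control lay Col15a1 (-0.67 ± 0.11), Col14a1 (-0.46 ± 0.22), Col3a1 (-0.43 ± 0.05), Col6a3 (-0.39 ± 0.05), Col4a1 (-0.36 ± 0.05) and Col5a3 (-0.36 ± 0.12). Near 0 stood Col23a1 (-0.06 ± 0.20), Col4a2 (0.04 ± 0.09) and Col5a1 (0.09 ± 0.13). The class medians were 0.09 for fibrillar, -0.16 for basement membrane and 0.09 for other chains, against -0.02 over all rows.

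The 22 chains below the minimum rest on about 110 reads or fewer in any library and were not called. Col22a1, the collagen of the myotendinous junction, stood at 5.0, 6.24 and 6.40, on 34, 64 and 110 reads. Its differences from the control were 1.24 ± 0.31 in exercise control and 1.40 ± 0.28 with SQH. Col12a1, a fibril-associated chain of tendon and muscle matrix, stood at 3.49, 4.94 and 4.99, and the fibril-associated Col19a1 at 3.71, 4.84 and 4.90. For these 3 chains both exercise libraries lay above the control and close to each other. Col6a6, a further type VI chain, had the opposite order, at 5.72, 4.25 and 4.32, with differences from the control of -1.46 ± 0.41 and -1.40 ± 0.34.

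Other low chains stood out in 1 library. The exercise control was highest for Col11a2, of the same collagen type as Col11a1 (2.49, 4.56 and 2.42), for the fibril-associated Col20a1 (4.43, 5.38 and 4.32) and for Col17a1, a transmembrane chain of epithelial attachment plaques (2.91, 4.04 and 1.16). It was also highest for Col4a3 (2.22, 3.84 and 1.16) and Col4a4 (4.43, 5.50 and 3.70), a head-to-head pair on chromosome 1 with 71 bases between the genes. Col4a3 and Col4a4 build a specialised type IV network with Col4a5, which was highest with SQH instead (3.08, 2.58 and 4.79, on 9, 5 and 36 reads). Col26a1 too was highest with SQH (3.72, 3.71 and 4.84). Col8a2, of the same type as Col8a1, was listed at 0 in the control and stood at 4.75 and 3.73 in the exercise libraries, on 23 and 17 reads.

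The remaining low chains were close between libraries or barely countable. Col27a1 (5.79, 5.25 and 5.11), Col24a1 (4.16, 4.48 and 3.88) and Col13a1, a transmembrane chain of the neuromuscular junction (3.99, 4.25 and 4.01), differed by less than 2-fold in all comparisons. The cartilage chains of types II, IX and X were Col2a1, Col9a1, Col9a2, Col9a3 and Col10a1. They reached at most 4.30, in Col9a1 of the exercise control on 17 reads. Col11a2, of type XI, stood at 4.56 in that library on 20 reads. Col9a1 stood at 2.23, 4.30 and 3.74, on 5, 17 and 17 reads. It lay above the control by 2.07 ± 0.74 in exercise control and 1.51 ± 0.73 with SQH. Col25a1 and Col28a1 had 6 reads or fewer in every library. Among the last 500 exonic bases, 3 low chains (Col4a3, Col9a3 and Col10a1) overlap exons of another gene on the opposite strand, whose reads cannot be told apart without the strand setting. None of the 19 chains above the minimum has such an overlap there.

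**Figure D4:**
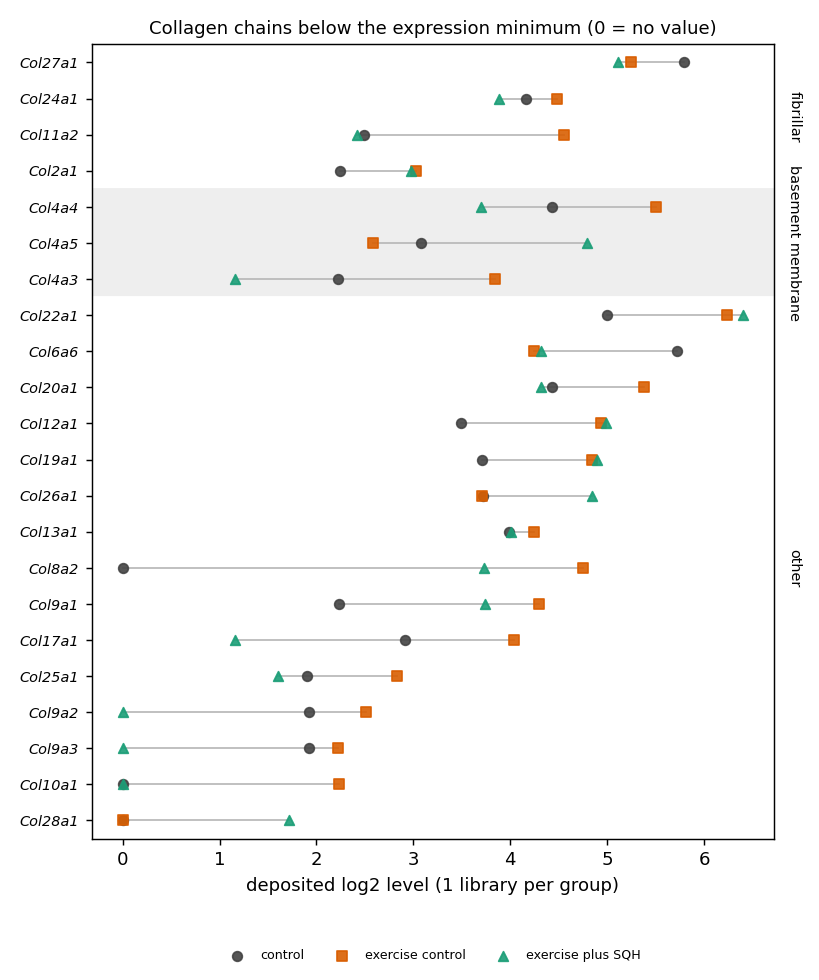
Deposited log2 level (x axis) of the 22 collagen chains above 0 but below the expression minimum (y axis, grouped by class) in the 3 libraries. Col22a1, Col12a1 and Col19a1 stand higher in both exercise libraries than in the control, and Col6a6 stands lower.

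Genes that fold, process and bind collagen were read from lists, against the same 8.29%, 8.01% and 3.02% of all rows called in exercise control against control, SQH against exercise control and SQH against control. At those shares a count of 0 in a list is near the background. Of 14 measured enzymes and chaperones, 0 were called between exercise control and control (median -0.26), where P3h4 (-0.93 ± 0.24) and Plod2 (-0.84 ± 0.27) had the largest differences. These were the 2 genes of the 14 called higher with SQH than in exercise control: Plod2, a lysyl hydroxylase, by 1.01 ± 0.26 and P3h4, a partner of the hydroxylases, by 1.03 ± 0.23. Against the control 0 were called with SQH, with Ppib at 0.96 ± 0.23 and Fkbp10 at -0.62 ± 0.17. The collagen chaperone gene Serpinh1 had levels of 10.70, 10.03 and 10.30, highest in the control as Col3a1 was. Sparc, the most abundant gene of the list, whose product binds collagen, had 14.01, 14.28 and 13.75, highest in the exercise control as Col1a1 was. The linear levels of the list summed to 23414, 25740 and 19916 with Sparc and to 6904, 5778 and 6119 without it. None of 3 measured procollagen processing genes was called in any comparison. Pcolce, whose product enhances removal of the propeptide, stood at 6.89, 6.34 and 6.20, Adamts2 at 7.76, 7.38 and 7.40, and Pcolce2 at 6.16, 6.42 and 5.75.

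Collagen's partners outside the cell followed. None of 3 measured receptor genes was called, with Ddr1 at 8.99, 8.35 and 9.09 and Ddr2 at 7.40, 7.08 and 7.24. None of 8 measured laminin, nidogen, perlecan and agrin genes of the basement membrane was called, a count near the background of 8.29%, 8.01% and 3.02%. The largest differences in that list were Lamc1 (-0.59 ± 0.07) and Lamb2 (0.57 ± 0.11) in exercise control against control, Agrn (-0.52 ± 0.13) and Hspg2 (-0.46 ± 0.03) in SQH against exercise control, and Agrn (-0.99 ± 0.12) and Nid1 (-0.70 ± 0.08) in SQH against control. Of 7 measured collagen-binding proteoglycans, Fmod, which binds type I fibrils in tendon, was called above the control in both exercise libraries, by 1.5 ± 0.17 and 1.19 ± 0.17. Kera was called with SQH (1.01 ± 0.22) and stood at 0.95 ± 0.24 in exercise control. The list did not move as a whole. Aspn, not called, lay below the control, by -0.83 ± 0.12 in exercise control and -0.90 ± 0.11 with SQH. Of the 7, 5 lay above the control and 2 below in exercise control, and 4 above and 3 below with SQH. Between the exercise libraries 0 proteoglycans were called, with Lum at -0.48 ± 0.16 and Ogn at -0.38 ± 0.18.

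Regulators of collagen genes were read from 10 measured genes of transforming growth factor beta signalling and its targets. The shares of all rows called were again 8.29%, 8.01% and 3.02%, in the order of comparisons given above. Ctgf, a matrix-inducing growth factor gene, stood at 10.66, 9.55 and 12.36. The exercise control was called below the control (-1.11 ± 0.07), and SQH above both, by 1.69 ± 0.04 over the control and 2.80 ± 0.06 over the exercise control. Ctgf was thus lowest in the library where Col1a1 was highest. Skil, a repressor in the same pathway, was called higher (1.03 ± 0.17) and the receptor gene Tgfbr1 lower (-1.04 ± 0.24) in exercise control against control.

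Markers of cell types that make or adjoin collagen were set beside the chains, against the same 8.29%, 8.01% and 3.02% of all rows called. The fibroblast list held Tcf4, a gene distinct from Tcf7l2, the fibroblast marker often called TCF4. Without Tcf4 the other 9 listed genes summed to 7159, 7002 and 7405 on the linear scale, and with it to 11967, 10470 and 10890, so which library was highest rested on that gene. No fibroblast marker of the 8 above the minimum, Tcf4 included, was called in any comparison, a count near the background. The largest differences were Ly6a (0.59 ± 0.10) and, Tcf4 aside, Pdgfra (0.44 ± 0.22) in exercise control against control, Clec3b (-0.70 ± 0.11) and Mfap5 (0.47 ± 0.19) in SQH against exercise control, and Clec3b (-0.68 ± 0.10) and Cd34 (-0.56 ± 0.05) in SQH against control. Of 6 measured tendon markers, Tnmd (1.59 ± 0.31), Cilp2 (1.42 ± 0.11) and Chodl (1.16 ± 0.07) were called higher and Scx (-1.18 ± 0.16) lower in exercise control against control. Tnmd (1.74 ± 0.29) and Cilp2 (1.19 ± 0.11) were also called with SQH against control, and 0 were called between the exercise libraries, with Thbs4 at -0.90 ± 0.10 and Egr1 at 0.72 ± 0.13. The 8 listed tendon markers summed to 1693, 2990 and 2400, the same order of libraries as Col1a1, Col1a2 and Col11a1. That order was not particular to tendon. The collagen-binding proteoglycans (4810, 5971 and 5260) and the nerve and Schwann cell markers (744, 1955 and 800) had it too.

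All 4 nerve and Schwann cell markers above the minimum in the list used (Mbp, Pmp22, S100b and Ncmap) were called higher in exercise control against control and lower again with SQH. Over all rows 2.95% were called higher in exercise control against control and 2.33% lower in SQH against exercise control. The 8 listed nerve and Schwann cell markers summed to 744, 1955 and 800, highest in the library where Col11a2, Col20a1, Col4a3 and Col4a4 were highest. The proteoglycan, tendon and endothelial sums were highest in that library too. With Sparc and Hspg2 counted, so were the sums of the folding enzymes and of the basement membrane partners. Against the control SQH had 0 nerve calls, with Ncmap at 0.36 ± 0.23 and S100b at -0.22 ± 0.20. None of 6 measured endothelial markers was called, a count near the background. The list summed to 3926, 4365 and 3515 (1865, 2567 and 2030 without Egfl7). Among its members Kdr stood at 9.15, 9.92 and 9.19, Emcn at 6.88, 7.58 and 7.26, Tek at 6.58, 7.18 and 7.30 and Egfl7 at 11.01, 10.81 and 10.54. Of 7 measured smooth muscle and pericyte markers the pericyte gene Rgs5 was called below the control in both exercise libraries (-1.49 ± 0.04 and -1.62 ± 0.03). The list summed to 8947, 6090 and 5116 with Rgs5 and to 3170, 4035 and 3234 without it, so the lower sums of the exercise libraries rested on Rgs5. Pdgfrb (0.74 ± 0.11) and Acta2 (0.50 ± 0.04) lay above the control in exercise control. Tagln (-0.64 ± 0.17), Notch3 (-0.62 ± 0.17) and Cspg4 (-0.48 ± 0.18) lay below it. Of the 7, 3 lay above the control there and 4 below, with a median of -0.48. The largest difference of this list between the exercise libraries was that of Pdgfrb (-0.72 ± 0.10), followed by Acta2 (-0.34 ± 0.04) and Myh11 (-0.34 ± 0.16).

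Of 6 adipocyte markers only Cfd passed the minimum, Lep was listed at 0 in all libraries, and the sum was 184, 101 and 334. Cfd was called higher with SQH than in either other library (1.24 ± 0.20 and 1.22 ± 0.19). The cartilage and bone list summed to 632, 322 and 833, nearly all of it Sox9, which was called higher with SQH than in exercise control (1.36 ± 0.10). Both sums were lowest in the library where Col23a1 was lowest. So were the sums of the receptor, regulator, fibroblast, slow-fibre and skeletal muscle lists. Of these, the receptor and slow-fibre sums stayed lowest there with any 1 gene left out. Without Ctgf the regulators summed to 2448, 2649 and 2711, and without Gsn the fibroblast markers to 7625, 6189 and 5759. The skeletal muscle list summed to 744498, 755755 and 638727 without Acta1, and to 745568, 771492 and 890478 without Ttn. Cfd itself stood at 6.27, 6.25 and 7.49. Among the muscle genes, Myh4 was called lower with SQH than in exercise control (-1.16 ± 0.01). The part of tendon, nerve, vessel, fat and slow-fibre content in the collagen differences was not tested.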

How the data were processed

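RNA of skeletal muscle (500 ng per library) was made into QuantSeq 3′ libraries, per the labels' protocols. Bowtie2, edgeR and mm10 are named in the submitters' processing notes, with no roles. The counter, annotation and strand setting are not stated in the labels or files. The authors deposited 1 log2 value per gene row and library, with no unit in the header. Low values on the linear scale bunched at multiples of a step (0.939, 1.185 and 0.768 in control, exercise control and SQH): 100%, 96.2% and 85.4% of linear values up to 9 lay within 0.2 step of one. Reads are the linear value divided by the step and are approximate, so no count model was fitted. A value of 0 was taken as no signal. The step has a log2 below 0 in control and SQH and above 0 in exercise control. The lowest values above 0 were 0.893, 0.155 and 0.55 in the same order. A listed 0 can thus stand for about 1 read in control and SQH.

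The expression minimum was the median of the mean linear value over the 15714 rows above 0 in at least 1 library. Counting errors are those of a ratio of Poisson counts. The step estimate and call rule were run on Poisson counts simulated at the steps of the control and exercise control libraries. The steps were built into those data and SQH was not simulated. That run therefore cannot show that the deposited values follow a step. Every chain was named. From each of 15 accompanying lists (138 symbols, 137 found) every called member was named. Where none was called, the 2 above the minimum with the largest difference were named. Slow-fibre genes were only counted. Serpinh1, Sparc, Pdgfra, Acan, Ibsp, Matn3, Gsn and the uncalled Acta2, Pdgfrb, Tagln, Notch3, Cspg4 and Aspn were named after their values were seen. A single marker was left out of its list and is not reported here. Members and lists were chosen with earlier results of these data known. List sums were also taken with each gene left out, a choice made after seeing the data. Alternatives were other minima, fold, pseudocount and scalings. Positions and exons came from GENCODE M21, in which all 44 chains were found. Python 3.11.15, numpy 2.4.6, pandas 2.3.3, scipy 1.17.1 and matplotlib 3.10.9 were used.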

Additional observations from a re-analysis of the deposited data

How the results depend on the processing

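The count of called chains depended on which rows were admitted. With no minimum, 14 of 41 chains were called between exercise control and control, 15 between SQH and exercise control and 14 between SQH and control, where 27.1%, 26.7% and 21.4% of all rows were. With at least 20 reads in both libraries the first count was 5 of 23 (adding Col22a1 and Col4a4), where 9.26% of all rows were called. The last was 3 of 23 (adding Col22a1 and Col6a6), where 4.97% of all rows were. Between SQH and exercise control it was 3 of 24 (adding Col20a1, lower), where 9.16% of all rows were. The median of the fibrillar chains between exercise control and control was 0.02 at that minimum. At 1.5-fold the first count was 5, adding Col1a2 and Col3a1, and the last 4, where 25.6% and 13.8% of rows were called. Between SQH and exercise control, adding 8 to the linear value, centring or quantile normalization left 1 call of 19, Col23a1. Under these settings 6.78%, 7.78% and 7.64% of all rows were called. Centring shifted a comparison by at most 0.07. Of the 18 count settings, 8 stayed within 1.5 times the reported count. In 50 of 51 settings a class median moved by less than 1.96 times the median counting error of its chains, and in 166 of 171 a single chain moved by less than 1.96 of its own. No called chain changed sign under these settings. No paired analysis was possible because each group has 1 library, and no library could be left out. The exercise control, with the fewest reads, limits the low chains.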
